A study of Mus musculus with 18 samples.

Results

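Naive CD4 T cells that over-express miR-24 were compared with wild-type naive CD4 T cells, 3 RNA sequencing libraries against 3. The deposited table gives each gene as RPKM, its reads scaled by the length of the transcript and by the number of mapped reads. A gene row was tested where 3 or more of these 6 libraries reached 1 RPKM, which is 10461 of 23951 distinct gene symbols. The series holds 18 libraries of 6 genotypes with 3 each. The libraries of the other 4 genotypes are used to set a gene's level under miR-24 beside its level in them. They also lend their spread to alternative fits of the same comparison, given where named.

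All mice were C57BL/6, and all cells were sorted by flow cytometry as CD4+CD25- cells of naive surface phenotype. The groups compared were miR-24 Tg, which over-expresses miR-24 in T cells, and WT. The other genotypes were miR-23 Tg and miR-27 Tg, each over-expressing the named family member in T cells, miR-23 cluster Tg (cluster Tg), over-expressing the whole cluster, and miR-23 cluster DKO (DKO), in which the a and b copies are both deleted in T cells. The labels used here do not name the promoter or insertion site of a transgene, the line that deletes the clusters, the age and sex of the mice or the number of animals behind a library. The p-values therefore measure the spread between these libraries, which may be partly technical.

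A microRNA guides the silencing complex to messenger RNAs, mostly by pairing of its seed (bases 2 to 8) with the 3′ untranslated region (3′ UTR), and paired transcripts are translated less and degraded faster. miR-24 is made from the miR-232724 clusters, which the mouse carries as an a and a b copy on separate chromosomes, and the members of a cluster come from a shared primary transcript. In T cells these clusters are known as restraints on effector and helper differentiation.

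The mature sequences are shown because the seed sets which transcripts each member can pair with. They are from RefSeq on GRCm38.p6, 5′ to 3′, with the seed in capitals. The same mature miR-24-3p arises from the Mir24-2 hairpin of the a cluster, at chr8:84208875-84208896 on the plus strand, and from the Mir24-1 hairpin of the b cluster, at chr13:63301251-63301272 on the plus strand. The 3 seeds differ, and those of miR-23 and miR-27 share their first bases.
mmu-miR-24-3p: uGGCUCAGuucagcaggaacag
mmu-miR-23a-3p: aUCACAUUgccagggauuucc
mmu-miR-27a-3p: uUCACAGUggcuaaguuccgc
A transcript can pair with the miR-24-3p seed through CTGAGCCA (an 8mer), CTGAGCC without a final A (a 7mer-m8) or TGAGCCA without a leading C (a 7mer-A1), read on the sense strand of its 3′ UTR. The windows below, from GENCODE M21 3′ UTRs, show such a site in capitals for the transcripts whose falls are described in most detail, with the first site of the best class in each.
Igfbp4 8mer: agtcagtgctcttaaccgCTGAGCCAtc
Slc16a5 8mer: tctgccattgagcagggcCTGAGCCAga
Ttyh3 8mer: gggcactcctggctgaccCTGAGCCAgc
Cd81 8mer: cctggagagttctgcctgCTGAGCCAaa
Ckb 7mer-m8: atgtttgccgcctggcggCTGAGCCct
Ecm1 7mer-m8: gtcaccCTGAGCCtc
Psap 7mer-m8: agagggcaggagcattttCTGAGCCct
Erp29 8mer: cagtggagcaatgcaggcCTGAGCCAga
H2afx 8mer: cctccctcacagaaagagCTGAGCCAct
Acvr1b 8mer: tccttcccgtaggcagtcCTGAGCCAca
Mapk14 8mer: gtctcagctgctgacgttCTGAGCCAgg
A site is a match of letters and was not tested as a binding site.

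The hairpin row of the transgene was examined first, as a check of the labels. Mir24-2, at chr8:84208815-84208921, stood at 13888, 49237 and 21686 RPKM in the miR-24 Tg libraries and at 34.5, 45.99 and 18.9 RPKM in the WT libraries. The groups did not overlap, and the row was 9.58 ± 0.52 (SE, n = 3 per group) higher on the log2(RPKM + 1) scale (adjusted p = 0.00120, limma with Benjamini-Hochberg adjustment over all 10461 rows). The cluster Tg libraries held it at 70491, 26689 and 16951 RPKM, a range that overlapped that of miR-24 Tg. In the miR-27 Tg libraries it was at 35.2, 26.8 and 0 RPKM, and in the miR-23 Tg libraries at 140, 0 and 61.4 RPKM. All 3 DKO libraries were listed at 0.

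The neighbouring hairpins of the a cluster were not called. Mir27a was at 239, 89.3 and 588 RPKM in miR-24 Tg and at 131, 194 and 95.6 RPKM in WT, a log2 difference of 0.79 ± 0.66 (SE, limma adjusted p = 0.491). Mir23a was at 0, 382 and 96.7 RPKM in miR-24 Tg and at 280, 82.8 and 0 RPKM in WT, with groups that overlapped. Mir23b, Mir27b and Mir24-1, the hairpins of the b cluster, did not exceed 0.000378 RPKM in any of the 18 libraries; 24 of their 54 values were exactly 0, and the rest were above 0 but far below what a single read gives, so the deposited values are not all made of whole reads. A hairpin row is short, so a few reads give a large RPKM, and the level of mature microRNA was not measured.

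Among the 159 other microRNA rows that passed the filter, 7 were called higher and 2 lower, with a median log2 difference of 0.03. In the 6 called rows where the value of a single read could be worked out, no library of the 6 held more than 6 reads; for Mir29c, Mir8114 and Mir546 it could not be worked out. Mir425 was at 229, 99.9 and 152 RPKM in miR-24 Tg and listed at 0 in all 3 WT libraries, which corresponds to 6, 2 and 3 reads against 0. Mir6403 was listed at 0 in miR-24 Tg and at 8.03, 7.13 and 8.80 RPKM in WT, 1 read in each library. For this reason the microRNA rows among the largest changes are not described further.

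Relative depth, estimated from the value of a single read and set to 1 in WT replicate 1, was 0.964 to 1.28 in miR-24 Tg and 0.912 to 1.13 in WT; absolute depth is unknown. The first principal component of the 6 libraries, with 33.9% of the variance, held the WT libraries between -26.2 and -22.1, miR-24 Tg replicates 1 and 3 at 38.1 and 27.1, and miR-24 Tg replicate 2 at 6.401. Replicate 1 of both groups carried the Y-linked Ddx3y (54.8 RPKM in miR-24 Tg and 48.7 in WT), and replicates 2 and 3 of both carried Xist instead. Sex as read from these transcripts was thus the same mix in both groups.

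Of the 10461 rows, 921 were called at an adjusted p under 0.05 (limma), 8.80% of those tested, with 473 higher under miR-24 (4.52%) and 448 lower (4.28%). Most changes were modest: 164 of the 921 reached 1 in size on the log2 scale, 128 higher and 36 lower. All 921 had groups that did not overlap, as had 33.8% of all rows. The median log2 difference of all rows was 0.00; rescaling to an equal sum without the microRNA rows moved it to 0.08 and gave 344 higher and 128 lower, so the split between directions depends on the scaling.

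The number of calls depended on single libraries. It was 337 without miR-24 Tg replicate 1, 229 without replicate 3, and 251, 222 and 313 without WT replicates 1, 2 and 3, but 906 without miR-24 Tg replicate 2. With the spread taken from all 18 libraries 385 rows (3.68%) were called, 344 of them among the 921. With the Xist-carrying replicates 2 and 3 of both groups alone, 28 were called, and 22 of these were among the 921.

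Among called rows whose higher group averaged at least 5 RPKM and whose groups did not overlap, the 25 largest rises and the 25 largest falls were taken by size. Without the microRNA rows, 8 of the rises and 1 of the falls, the falls ranged from -2.38 to -1.13 on the log2 scale and the rises from 2.09 to 3.71. Leaving out each of the 6 libraries in turn, 16 of these 24 falls and 7 of these 17 rises were called every time.

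**Figure D1:**
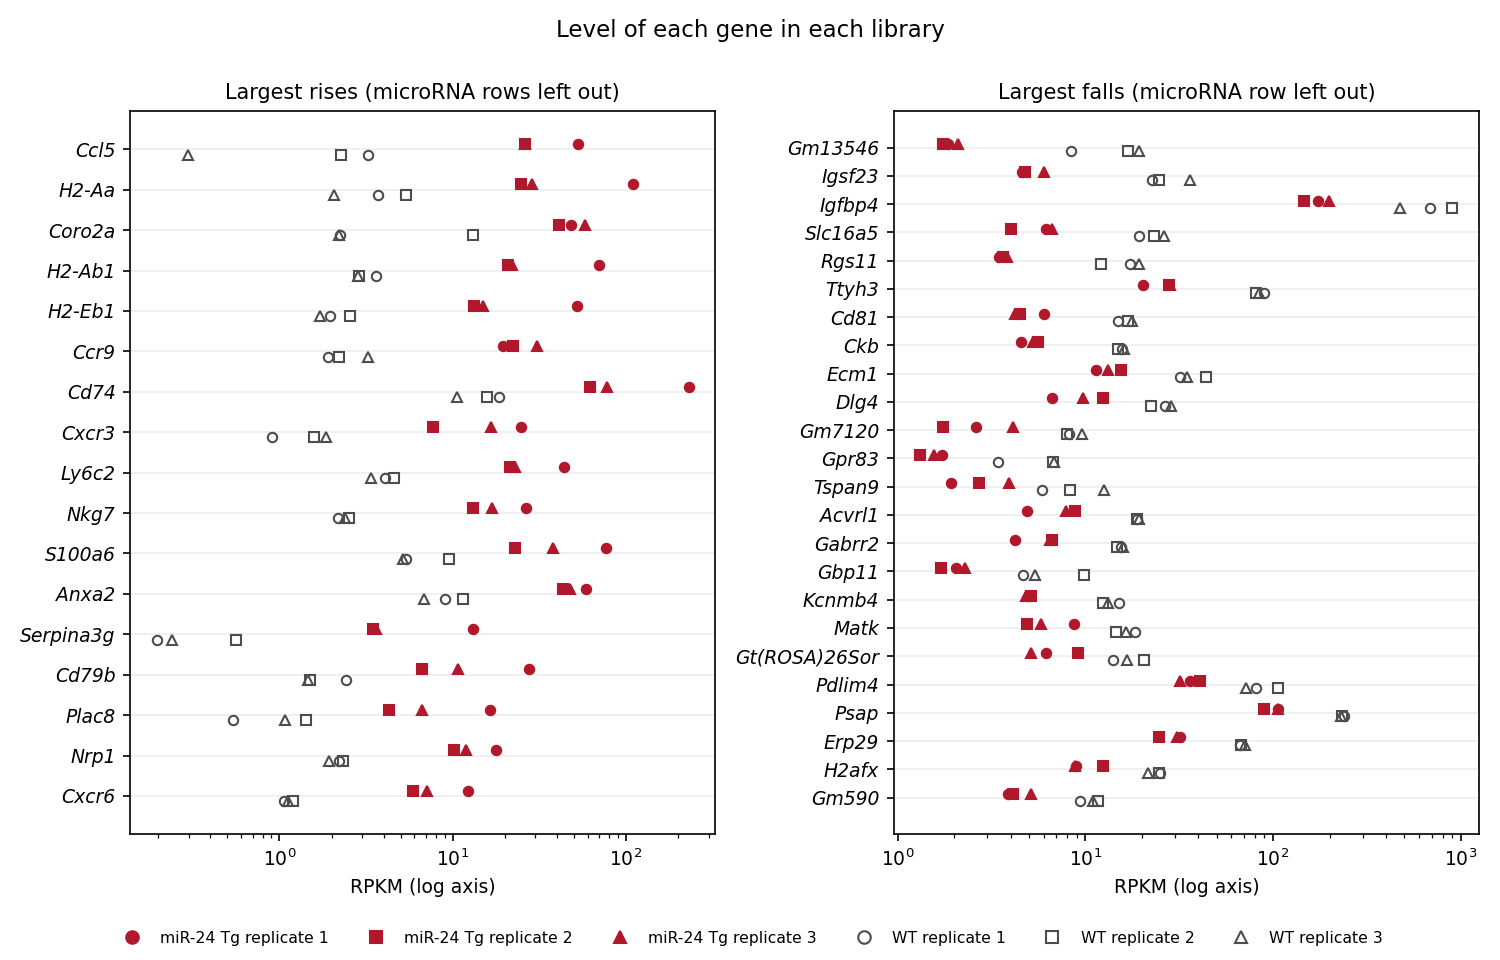
RPKM on a log axis in each of the 3 miR-24 Tg libraries (filled red) and the 3 WT libraries (open grey) for the 25 largest rises (left) and falls (right), microRNA rows left out; symbol shapes give the replicate number. Within each gene the groups do not overlap: Psap lies between 89.6 and 107 RPKM in miR-24 Tg and between 229 and 239 in WT, and H2-Aa in miR-24 Tg replicate 1 (109 RPKM) stands far above replicates 2 and 3 (24.9 and 28.8).

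Many of the largest falls carried a match to the miR-24-3p seed. Of the 25, 1 is a microRNA row, 21 of the other 24 had an annotated 3′ UTR, and 13 of these held a match: 9 an 8mer, 3 a 7mer-m8 and 1 a 7mer-A1. Over all rows with a 3′ UTR, 26.3% held a match and 8.69% an 8mer. Of the 17 largest rises that are not microRNA rows, all with a 3′ UTR, 2 held a match: H2-Eb1 an 8mer and Ccr9 a 7mer-A1.

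Igfbp4, a secreted binding protein of insulin-like growth factors that is abundant in naive CD4 T cells, was the most abundant of these 13 in WT. It was at 173, 146 and 199 RPKM in miR-24 Tg and at 687, 902 and 475 RPKM in WT. All 3 transgenic libraries lay below all 3 WT libraries, and the fall was -1.95 ± 0.24 on the log2 scale (SE, limma adjusted p = 0.0109). Ttyh3, a membrane protein of the tweety family, was at 20.4, 27.9 and 28.3 RPKM against 89.5, 80.8 and 84.0 RPKM, a fall of -1.71 ± 0.13 (limma adjusted p = 0.00464). Psap encodes prosaposin, the precursor of the lysosomal saposins that help to break down sphingolipids. It was at 106, 89.6 and 107 RPKM in miR-24 Tg and at 239, 233 and 229 RPKM in WT, a fall of -1.21 ± 0.09 (limma adjusted p = 0.00323). In both transcripts the spread within a group was small beside the gap between groups. The 8mer of Igfbp4 lies in a stretch that recurs in other 3′ UTRs.

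Lower-abundance transcripts with a site fell to a similar extent. Slc16a5, of the monocarboxylate transporter family, was at 6.19, 4.01 and 6.64 RPKM in miR-24 Tg and at 19.4, 23.2 and 26.2 RPKM in WT (log2 -1.87 ± 0.19, limma adjusted p = 0.00695). Cd81, a tetraspanin that organises receptors in the membrane, was at 6.00, 4.498 and 4.21 RPKM against 14.9, 16.8 and 17.8 RPKM (log2 -1.58 ± 0.13, limma adjusted p = 0.00520). Ckb, the brain-type creatine kinase, was at 4.54, 5.60 and 5.27 RPKM against 15.8, 14.8 and 16.1 RPKM (log2 -1.44 ± 0.09, limma adjusted p = 0.00185). None of these 3 transcripts had a transgenic library above 7 RPKM or a WT library below 14 RPKM.

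Ecm1, an extracellular matrix protein linked to the exit of helper cells from lymph nodes, was at 11.4, 15.4 and 13.3 RPKM in miR-24 Tg and at 31.9, 43.9 and 35.0 RPKM in WT. H2afx, the histone variant phosphorylated at DNA double-strand breaks and a reported target of miR-24, was at 8.94, 12.4 and 8.78 RPKM against 25.1, 24.5 and 21.6 RPKM. Erp29, a chaperone of the endoplasmic reticulum, was at 31.9, 24.6 and 30.9 RPKM against 66.8, 67.1 and 70.5 RPKM. The groups did not overlap in any of them, and the falls were -1.39, -1.18 and -1.21 on the log2 scale (limma adjusted p = 0.00756, 0.00945 and 0.00520). The fall of Erp29 was not called with the spread taken from all 18 libraries (limma adjusted p = 0.130).

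The other 4 of the 13 with a site lost their call with a single library left out. Dlg4, a scaffold of neuronal synapses, was at 6.66, 12.4 and 9.70 RPKM in miR-24 Tg and at 26.6, 22.4 and 28.8 RPKM in WT. Gpr83, a G protein-coupled receptor found on regulatory T cells, was at 1.72, 1.32 and 1.56 RPKM against 3.44, 6.75 and 6.82 RPKM. Both had groups that did not overlap. Leaving out WT replicate 2 or 3, among others, ended the calls of Dlg4, Gpr83, Matk and Gm7120, with a limma adjusted p of at most 0.0677, 0.0839, 0.0677 and 0.0745.

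Some of the most stable falls carried no match in the annotated 3′ UTR. Igsf23, a member of the immunoglobulin superfamily, was at 4.62, 4.75 and 6.00 RPKM in miR-24 Tg and at 22.6, 24.7 and 35.97 RPKM in WT (log2 -2.21 ± 0.19, limma adjusted p = 0.00520). Rgs11, which speeds up GTP hydrolysis by G proteins and so ends receptor signals, was at 3.46, 3.66 and 3.804 RPKM against 17.2, 12.2 and 19.2 RPKM (log2 -1.87 ± 0.16, limma adjusted p = 0.00520). Kcnmb4, an accessory subunit of large-conductance potassium channels, was at 4.98, 5.12 and 4.85 RPKM against 15.1, 12.4 and 13.3 RPKM (log2 -1.28 ± 0.09, limma adjusted p = 0.00323). The transgenic libraries lay close together in each of these genes, and every left-out library kept the call.

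Gabrr2, a subunit of GABA-gated chloride channels, was at 4.22, 6.62 and 6.45 RPKM in miR-24 Tg and at 15.5, 14.7 and 15.9 RPKM in WT, again without overlap. Acvrl1, a type I receptor of the TGF-beta family, was at 4.87, 8.79 and 7.93 RPKM against 18.7, 18.8 and 19.3 RPKM; its limma adjusted p of 0.0146 became at most 0.0605 when a WT library was left out. Gm590 and Pdlim4 also fell without a match, by log2 -1.13 and -1.22. Gm13546, Gbp11 and Gt(ROSA)26Sor had no annotated 3′ UTR here and fell by log2 -2.38, -1.29 and -1.23. Tspan9 and Gbp11 lost their call with miR-24 Tg replicate 2 left out, and with others, where the limma adjusted p reached 0.119 and 0.0876.

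The same contrast was described over all rows by the best miR-24-3p match in their 3′ UTR. Of 10461 rows, 9796 (93.6%) had an annotated 3′ UTR: 851 held an 8mer, 1010 a 7mer-m8, 716 a 7mer-A1 and 7219 none. Called falls made up 7.64% of rows with an 8mer, 8.71% with a 7mer-m8, 7.12% with a 7mer-A1 and 3.14% with none. Called rises made up 2.82%, 4.06%, 5.59% and 4.79% in the same order. They were less frequent with an 8mer or a 7mer-m8 than without a match, but more frequent with a 7mer-A1. The median log2 difference was -0.05, -0.06, -0.00 and 0.01 in the same order. Genes are not independent replicates, so these shares are a description without a test.

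The size of that shift was small and present in each transgenic library. The median of rows with an 8mer or 7mer-m8 minus that of rows without a match was -0.07 on the log2 scale, and -0.08, -0.07 and -0.05 in miR-24 Tg replicates 1, 2 and 3, each set against the WT mean. Rows with a match have longer 3′ UTRs (median 2184 bases against 872), so the shares were also read within 3 classes of 3′ UTR length. Called falls were 12.6% with an 8mer or 7mer-m8 against 3.72% without a match in the shortest class, 10.4% against 3.45% in the middle class and 6.44% against 1.69% in the longest class. Matches to the seeds of the other cluster members had no such excess: 2.91% of rows with a miR-23-3p match and 3.53% of rows with a miR-27-3p match were called lower, and 5.14% and 4.89% were called higher.

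**Figure D2:**
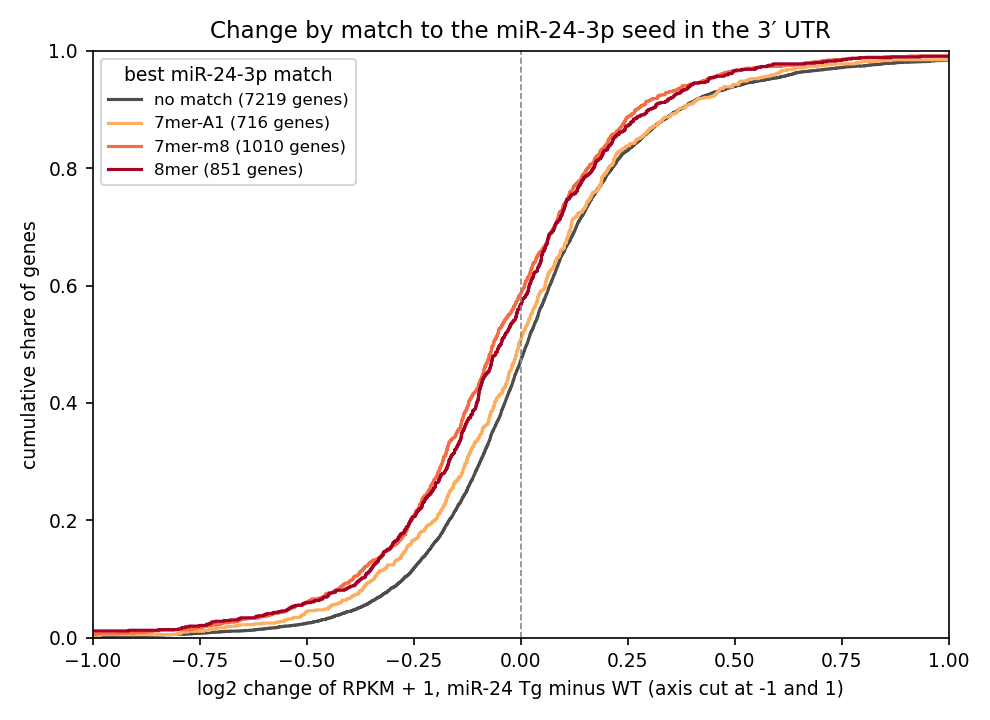
Cumulative share of genes (vertical axis) by log2 difference between miR-24 Tg and WT (horizontal axis, shown from -1 to 1), with 1 line for each class of best miR-24-3p seed match in the 3′ UTR. The lines for 8mer and 7mer-m8 genes lie to the left of the line for genes without a match, with medians of -0.05 and -0.06 against 0.01.

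Reported targets of miR-24 were taken from a list drawn up from the literature. Of 32 genes, 23 passed the filter. Of these, 4 were called lower and none higher, against 4.28% and 4.52% of all rows. The median log2 difference was -0.18 against 0.00 over all rows. With a library left out, 2 to 3 were called lower and 0 to 1 higher, and the median ran from -0.23 to -0.05. With the spread of all 18 libraries 1 was called lower. Rescaled without microRNA rows, 2 were called lower and the median was -0.10, against 0.08 over all rows. The 4 called falls were H2afx, Acvr1b, the type I receptor for activin, Mapk14, the p38 alpha kinase, and Myc, the growth regulator. Acvr1b was at 14.7, 15.8 and 16.8 RPKM in miR-24 Tg and at 30.1, 24.97 and 25.1 RPKM in WT (log2 -0.72, limma adjusted p = 0.0120). The groups did not overlap, but with the spread of all 18 libraries the adjusted p was 0.624. Mapk14 was at 66.5, 65.2 and 65.3 RPKM against 86.7, 84.3 and 78.1 RPKM (log2 -0.33, limma adjusted p = 0.0303). Myc, which had no match in its annotated 3′ UTR, was at 34.3, 39.3 and 37.6 RPKM against 45.7, 53.3 and 51.7 RPKM (log2 -0.43, limma adjusted p = 0.0338). Leaving out a WT library ended the calls of Mapk14 and Myc, with adjusted p up to 0.106 and 0.114. The most abundant members without a call were Cdkn1b, an inhibitor of cyclin-dependent kinases with an 8mer (log2 -0.01), Cdk4 (-0.22), Notch1 (-0.32) and Mcm4 (-0.44).

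Genes of effector and memory T cells made up 7 of the 17 largest rises that are not microRNA rows: Ccl5, Cxcr3, Ly6c2, Nkg7, S100a6, Anxa2 and Cxcr6. Of 42 listed genes 33 passed the filter, and 21 of these were called higher and none lower, against 4.52% and 4.28% of all rows, with a median log2 difference of 1.45. A gene below 1 RPKM in WT can pass only through its level under miR-24: this holds for 5 of the 33 here, and for 99 of all rows tested, of which 57 were called higher. The counts of rises over the members of a list therefore describe those members and support nothing further. For every list below, the shares to set beside its counts are the same 4.52% higher and 4.28% lower of all rows.

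Ccl5, a chemokine that memory and cytotoxic cells store as transcript, was at 52.8, 26.2 and 26.3 RPKM in miR-24 Tg and at 3.23, 2.27 and 0.295 RPKM in WT (log2 3.71 ± 0.49, limma adjusted p = 0.0120). Ly6c2, a surface antigen of memory cells, was at 43.9, 21.4 and 23.03 RPKM against 4.06, 4.59 and 3.40 RPKM (log2 2.53 ± 0.27, limma adjusted p = 0.00756). Nkg7, a granule protein of cytotoxic lymphocytes, was at 26.6, 13.1 and 16.8 RPKM against 2.17, 2.51 and 2.38 RPKM (log2 2.51 ± 0.24, limma adjusted p = 0.00612). In all 3 genes miR-24 Tg replicate 1 was the highest library, and the lowest transgenic library was above the highest WT library.

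Anxa2, an annexin that binds membranes with calcium, was at 58.8, 43.2 and 47.8 RPKM in miR-24 Tg and at 9.04, 11.4 and 6.81 RPKM in WT (log2 2.35 ± 0.19, limma adjusted p = 0.00520). Ahnak, a very large scaffold protein of calcium signalling, was at 39.9, 27.8 and 24.5 RPKM against 6.44, 6.55 and 6.04 RPKM (log2 2.08 ± 0.17, limma adjusted p = 0.00520). Groups were far apart for both, and neither call was lost with a library left out. Also called were S100a6 and S100a10, members of the S100 family that are partners of annexins. Itgb1, the integrin beta 1 chain, and Cd44, the hyaluronan receptor that marks memory cells, were called too. Cd44 itself differed little, at 19.1, 14.8 and 16.7 RPKM against 9.31, 10.1 and 12.7 RPKM (log2 0.62, limma adjusted p = 0.0455), and its call was lost when WT replicate 1 or 2 or transgenic replicate 1 or 3 was left out, with an adjusted p up to 0.138. The most abundant members without a call were Crip1 (log2 0.17), Vim (0.31), Itgal (-0.08) and Cd48 (-0.01).

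The number of called effector and memory genes was 16, 22 and 9 when miR-24 Tg replicate 1, 2 or 3 was left out, 9, 10 and 11 when WT replicate 1, 2 or 3 was, and 15 with the spread of all 18 libraries. With replicates 2 and 3 of both groups alone it was 3: Ahnak, Ly6c2 and Nkg7. Replicate 1 was the highest of the 3 transgenic libraries in 249 of the 473 called rises.

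Genes of T helper 1 cells rose in part. Of 15 listed, 12 passed the filter, 3 of them only through miR-24 Tg, and 7 were called higher. Tbx21, the transcription factor that sets the T helper 1 fate, was at 4.25, 2.02 and 3.27 RPKM in miR-24 Tg and at 0.3002, 0.350 and 0.309 RPKM in WT (log2 1.63 ± 0.21, limma adjusted p = 0.0114). Ifng, its signature cytokine, was at 4.02, 11.1 and 3.96 RPKM against 0.483, 0.742 and 0.626 RPKM (log2 2.06 ± 0.35, limma adjusted p = 0.0233). Levels of both were low in every library, and no transgenic library overlapped WT.

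The receptor for interleukin-18, which drives interferon-gamma together with interleukin-12, rose in both chains. Il18r1 was at 85.3, 81.8 and 94.98 RPKM in miR-24 Tg and at 34.3, 29.9 and 23.9 RPKM in WT (log2 1.55 ± 0.14, limma adjusted p = 0.00520). Il18rap was at 4.37, 2.49 and 3.06 RPKM against 0.461, 0.635 and 0.464 RPKM (log2 1.48 ± 0.18, limma adjusted p = 0.00945). Stat4, which carries the interleukin-12 signal, was at 81.9, 61.7 and 65.2 RPKM against 39.3, 44.3 and 45.05 RPKM (log2 0.68, limma adjusted p = 0.0251). The other called members were Cxcr3 and Ifngr1. The T helper 1 count was 2 with miR-24 Tg replicate 3 left out and 3, 3 and 4 with WT replicate 1, 2 or 3 left out. Ifng lost its call in all 4 of these cases, with an adjusted p up to 0.0869, as did Stat4 (up to 0.0880), and Tbx21 in the first (0.0519). Runx3, Il27ra and Ifngr2 were measured and not called, at log2 -0.12, -0.20 and -0.24. Rises were not confined to the T helper 1 list. Of 13 T follicular helper genes that passed, 4 were called higher, with a median of 0.41. Of T helper 2 and T helper 17 genes that passed, 1 of 8 and 1 of 6 were called higher. In these 3 lists 0 members were called lower. With the spread of all 18 libraries the called rises were 3, 1 and 0 in the same order.

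Of 19 chemokine receptors measured, 11 passed the filter, and 4 were called higher. Ccr9, which homes cells to the small intestine and is high in thymocytes, was at 19.6, 22.3 and 30.6 RPKM in miR-24 Tg and at 1.92, 2.197 and 3.23 RPKM in WT (log2 2.86 ± 0.20, limma adjusted p = 0.00323). Cxcr3, which homes T helper 1 cells to inflamed tissue, was at 24.8, 7.68 and 16.7 RPKM against 0.910, 1.59 and 1.86 RPKM (log2 2.71 ± 0.40, limma adjusted p = 0.0151). Cxcr6 was at 12.3, 5.93 and 7.14 RPKM against 1.07, 1.21 and 1.12 RPKM (log2 2.09 ± 0.24, limma adjusted p = 0.00895). Cxcr4, the receptor for the stromal chemokine Cxcl12, had a smaller rise with tight groups, at 189, 186 and 181 RPKM against 116, 101 and 117 RPKM (log2 0.74, limma adjusted p = 0.00756). Cxcr3 lost its call when WT replicate 1 or 2 or the third transgenic library was left out, with an adjusted p up to 0.0615; the other 3 were called with each library left out.

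Among regulatory T cell genes 15 of 21 passed the filter, 6 were called higher and Gpr83 was called lower. Nrp1, a co-receptor carried by thymus-derived regulatory T cells, was at 17.7, 10.2 and 11.985 RPKM in miR-24 Tg and at 2.197, 2.33 and 1.93 RPKM in WT (log2 2.15 ± 0.19, limma adjusted p = 0.00548). Nrp1 was called with every library left out. Foxp3, the defining transcription factor, was at 15.9, 5.92 and 4.41 RPKM against 2.96, 2.59 and 2.60 RPKM and was not called (log2 1.21, limma adjusted p = 0.118); it is given for its role and was picked with its values known. The other called members were Tigit, Cd83, Ikzf2, Nt5e and Capg, and 1 regulatory T cell gene was called higher when the third transgenic library or any single WT library was left out. Il2ra and Cd4 encode markers used in the sort, so their transcripts are no independent reading of cell state.

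**Figure D3:**
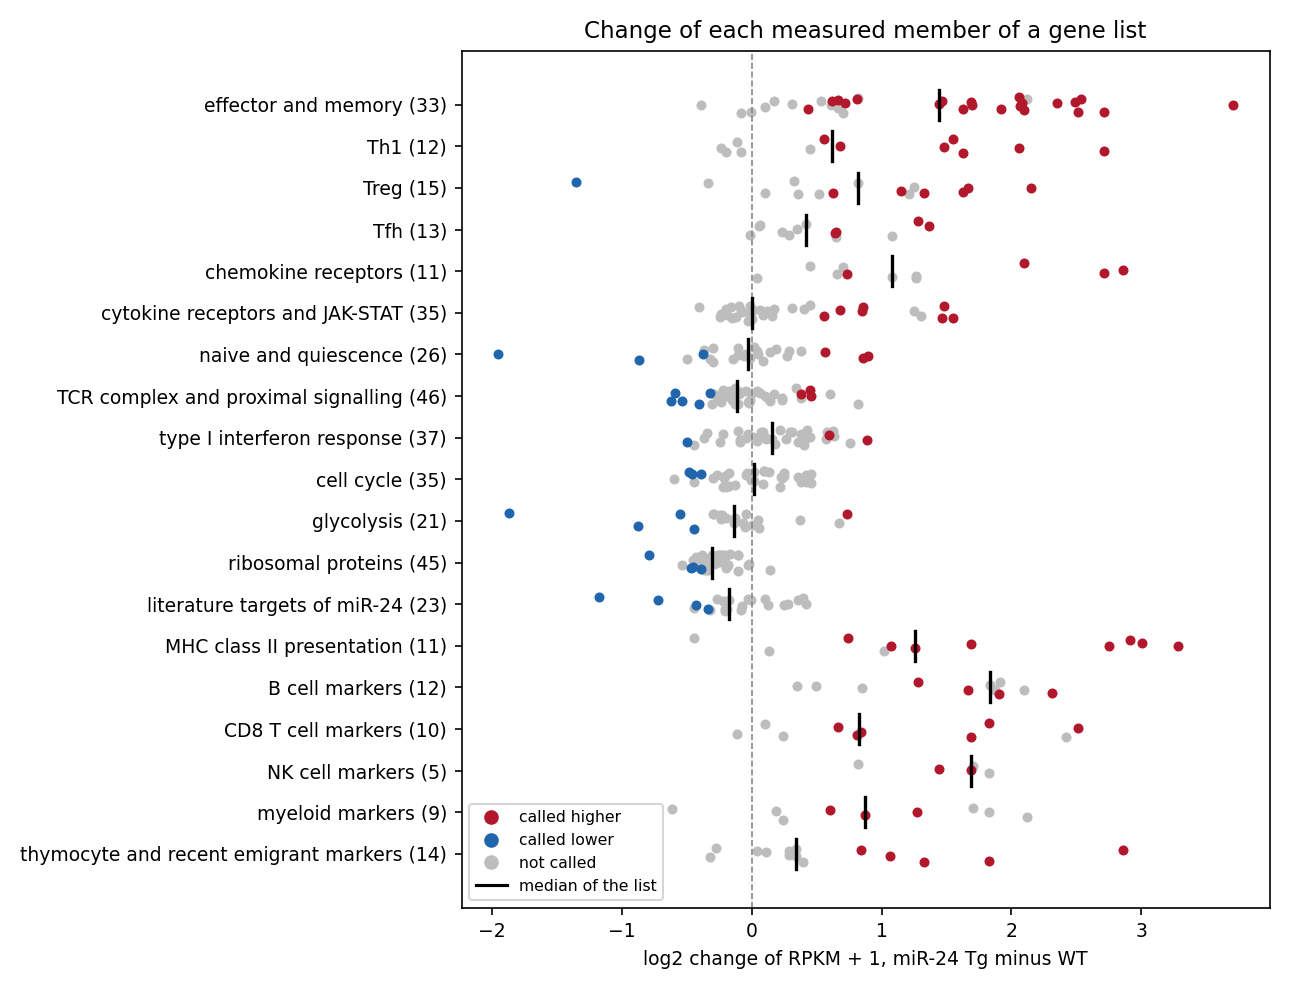
Log2 difference between miR-24 Tg and WT (horizontal axis) for every member of a gene list that passed the filter, with the number of such members in brackets; red points were called higher, blue points called lower, grey points not called, and the black bar is the median of the list. Effector and memory genes (median 1.45) and MHC class II genes (1.26) lie to the right, whereas naive genes (-0.03), T cell receptor genes (-0.12) and ribosomal protein genes (-0.30) lie close to 0 or to its left.

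Markers of several cell types other than CD4 T cells had higher sums in miR-24 Tg, and all lists are given here. The summed level of 20 B cell markers was 189, 64.1 and 89.1 RPKM in miR-24 Tg and 37.8, 39.9 and 28.2 RPKM in WT; 12 passed the filter, 7 of them only through miR-24 Tg, and 4 were called higher. Cd79b, a signalling chain of the B cell receptor, was at 27.7, 6.67 and 10.7 RPKM against 2.44, 1.497 and 1.46 RPKM (log2 2.31, limma adjusted p = 0.0351). When the third transgenic library or any single WT library was left out no B cell marker was called, and Cd79b reached an adjusted p of up to 0.114. When miR-24 Tg replicate 2 was left out 9 were called, and the fits of 16 and 18 libraries called 10 and 5. No B cell marker was at 0 in all 6 libraries.

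Genes of MHC class II presentation, which in mice B cells, dendritic cells and macrophages express and T cells largely lack, were among the largest rises. Of 14 listed, 11 passed the filter and 8 were called higher. H2-Aa was at 109, 24.9 and 28.8 RPKM in miR-24 Tg and at 3.72, 5.39 and 2.07 RPKM in WT (log2 3.28 ± 0.58, limma adjusted p = 0.0252). Cd74, the invariant chain, was at 230, 62.4 and 78.0 RPKM against 18.5, 15.8 and 10.6 RPKM (log2 2.75 ± 0.49, limma adjusted p = 0.0259). H2-Ab1 and H2-Eb1 followed the same order, with replicate 1 far above replicates 2 and 3. Reads may be shared between H2 genes, which makes their values uncertain. The count was 3 when the third transgenic library was left out and 2, 2 and 3 when WT replicate 1, 2 or 3 was; H2-Aa then reached an adjusted p of up to 0.0872 and Cd74 of up to 0.0854.

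H2-Oa and H2-Ob, the chains of the H2-O molecule that modulates peptide loading, differed from the rest of the class II genes in their spread. H2-Oa was at 15.9, 15.5 and 13.4 RPKM in miR-24 Tg and at 6.52, 6.63 and 6.54 RPKM in WT (log2 1.07, limma adjusted p = 0.00464). H2-Ob was at 49.5, 57.2 and 50.7 RPKM against 33.4, 31.2 and 28.4 RPKM (log2 0.74, limma adjusted p = 0.00945). Replicate 1 did not stand apart in either gene, and both were called with every library left out. With the spread of all 18 libraries H2-Oa was not called (limma adjusted p = 0.0651).

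Neutrophil markers varied most between the transgenic libraries. The 14 neutrophil markers summed to 136, 27.5 and 3.34 RPKM in miR-24 Tg and to 0.408, 0.0612 and 0.193 RPKM in WT; S100a8 was at 46.3, 12.7 and 1.70 RPKM against 0 in all 3 WT libraries and was not called (limma adjusted p = 0.0692). The 19 myeloid markers summed to 228, 172 and 157 RPKM against 123, 126 and 121 RPKM, with 3 of the 9 that passed called higher. NK cell markers, 14 in all, summed to 81.7, 46.1 and 49.9 RPKM against 12.2, 12.4 and 17.1 RPKM. Of these 5 passed the filter, 3 of them only through miR-24 Tg, and 2 were called higher, Klrd1 and Klrk1. Klrd1, also listed among the CD8 T cell markers below, made up most of the NK cell sum in every library. The 10 erythroid markers summed to 103, 46.3 and 38.5 RPKM against 18.9, 43.3 and 17.6 RPKM. The 13 dendritic cell markers summed to 137, 105 and 120 RPKM against 106, 93.2 and 104 RPKM, and the dendritic and erythroid sums overlapped between the groups. The 11 naive CD4 T cell markers summed to 4228 to 4433 RPKM in miR-24 Tg and to 4498 to 4780 RPKM in WT. In bulk libraries a change in the number of cells of a type and a change in RNA per cell cannot be told apart. The part of these transcripts in the rises of effector, regulatory and class II genes was not tested.

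**Figure D4:**
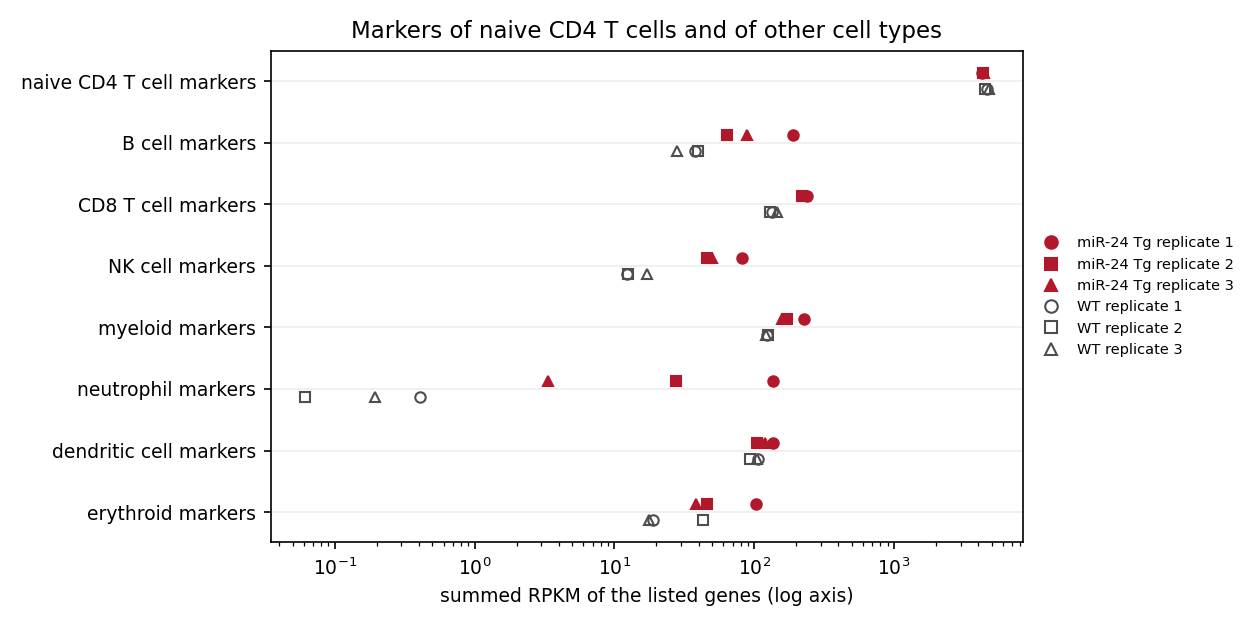
Summed RPKM (log axis) of marker genes of naive CD4 T cells and of 7 other cell types in each miR-24 Tg library (filled red) and WT library (open grey). B cell, CD8 T cell, NK cell, myeloid and neutrophil sums do not overlap between the groups, and replicate 1 is the highest transgenic library in each of them, for example 189 RPKM of B cell markers against 64.1 and 89.1 in replicates 2 and 3.

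CD8 T cell markers had sums that were close between the transgenic libraries. All 10 listed genes passed the filter, 1 of them (Cd8a) only through miR-24 Tg, and 6 were called higher, against 4.52% of all rows. The list summed to 240, 219 and 232 RPKM in miR-24 Tg and to 134, 130 and 145 RPKM in WT. Klrd1, the CD94 chain of the NKG2 receptors, was at 41.9, 35.2 and 39.6 RPKM against 10.6, 9.40 and 14.5 RPKM (log2 1.69 ± 0.16, limma adjusted p = 0.00581). Cd8a was at 4.22, 4.85 and 2.90 RPKM against 0.211, 0.442 and 0.530 RPKM (log2 1.83 ± 0.18, limma adjusted p = 0.00695). Cd8b1, Prf1 (perforin), Eomes and Nkg7 were the other called members. The count was 3 when the first transgenic library or any single WT library was left out, and Cd8b1, Prf1 and Eomes then reached adjusted p values of up to 0.105, 0.123 and 0.118.

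Of 17 thymocyte and recent emigrant genes 14 passed, 1 of them (Cd8a) only through miR-24 Tg. Of these 14, 5 were called higher, against 4.52% of all rows, with Ccr9 and Cd8a among them. Dntt, the terminal transferase that adds bases at antigen receptor joints in thymocytes, was at 14.3, 16.7 and 15.4 RPKM in miR-24 Tg and at 6.48, 6.29 and 7.93 RPKM in WT (log2 1.06 ± 0.11, limma adjusted p = 0.00695). Rag2 was listed at 0 in all 6 libraries. The groups of Dntt did not overlap, and its call held with each library left out.

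Genes of the naive state split. Of 26, 3 were called higher and 3 lower, with a median of -0.03. Dapl1 was at 474, 374 and 409 RPKM in miR-24 Tg and at 204, 246 and 224 RPKM in WT (log2 0.89, limma adjusted p = 0.0121), and Il7r, the survival receptor for interleukin-7, at 453, 412 and 516 RPKM against 232, 214 and 324 RPKM (log2 0.86, limma adjusted p = 0.0364). Tcf7, the transcription factor TCF-1 of naive and stem-like T cells, was at 445, 524 and 549 RPKM against 979, 873 and 908 RPKM (log2 -0.87, limma adjusted p = 0.0128). Igfbp4 and Foxo1 were the other falls. With the spread of all 18 libraries Igfbp4 alone of the 6 was called. Leaving out WT replicate 1 ended the calls of Dapl1, Il7r and Tcf7, with an adjusted p of up to 0.0527, 0.124 and 0.0543 over all left-out libraries. Txnip, Ets1, Klf2 and Slfn2, the most abundant of the rest, were not called.

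Of 46 genes of the T cell receptor complex and its proximal signalling, 3 were called higher and 5 lower. The shares of all rows were 4.52% and 4.28%, and the median of the list was -0.12. In 17 of the 46 all miR-24 Tg libraries lay below WT and in 6 above, against 16.6% and 17.2% of all rows. Cd5, a brake on receptor signalling, was at 168, 165 and 167 RPKM in miR-24 Tg and at 270, 233 and 270 RPKM in WT (log2 -0.62, limma adjusted p = 0.0121). Lck, the kinase that starts the receptor signal, was at 424, 416 and 429 RPKM against 631, 625 and 658 RPKM (log2 -0.59, limma adjusted p = 0.0124). Cd6, Nfatc2 and Fyn were the other falls, and Cd96, Ubash3b and Cd2 the rises. The transgenic libraries lay within a few RPKM of each other in Cd5 and Lck, yet both calls were lost when WT replicate 1 or the third transgenic library was left out, with an adjusted p of up to 0.0553 and 0.0567. Rescaled without microRNA rows, no member was called lower and 2 were called higher.

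Among cytokine receptors and their JAK and STAT partners, 35 of 37 passed the filter and 7 were called higher, none lower, around a median of 0.00. Besides Il18r1, Il18rap, Il7r, Stat4 and Ifngr1 these were Il2rb and Il10ra. Il2rb, the chain shared by the receptors for interleukin-2 and interleukin-15, was at 81.2, 55.0 and 52.6 RPKM in miR-24 Tg and at 20.5, 29.9 and 16.7 RPKM in WT (log2 1.46, limma adjusted p = 0.0229). Its call was lost when replicate 1 or 3 of either group was left out, with an adjusted p up to 0.0862. Eng, a co-receptor of the TGF-beta family, rose by log2 1.58 (limma adjusted p = 0.0121) and lost its call when the third transgenic library was left out (0.0541).

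Some metabolic genes were called in either direction. Fasn, fatty acid synthase, was at 19.9, 17.2 and 17.6 RPKM in miR-24 Tg and at 33.1, 33.0 and 31.9 RPKM in WT (log2 -0.81 ± 0.07, limma adjusted p = 0.00562). Ldhb, a lactate dehydrogenase chain, was at 37.2, 40.3 and 36.4 RPKM against 21.6, 23.6 and 22.0 RPKM (log2 0.74 ± 0.07, limma adjusted p = 0.00581). Neither gene had overlapping groups, and each call held with every library left out, although with the spread of all 18 libraries Ldhb was not called (limma adjusted p = 0.203). Of 21 genes of glycolysis, lactate handling and the monocarboxylate transporter family that passed the filter, 1 was called higher and 4 lower. The shares of all rows were 4.52% and 4.28%. The falls were Slc16a5, Pgk1, Pdk1 and Hk1. In 10 of the 21 all miR-24 Tg libraries lay below WT and in 2 above, against 16.6% and 17.2% of all rows. The called falls were 4 after quantile normalisation, 2 with the spread of all 18 libraries and 1 to 4 with a library left out. Of 27 genes of cholesterol and fatty acid synthesis 1 was called higher (Scd2) and 2 lower (Fasn and Tm7sf2).

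Of 45 ribosomal protein genes that passed the filter, 4 were called lower (Rps20, Rpl6 and Rps7 among them) and none higher, with a median of -0.30. In 26 of the 45 all miR-24 Tg libraries lay below WT and in 0 above, against 16.6% and 17.2% of all rows. After quantile normalisation, after rescaling without microRNA rows and with the spread of all 18 libraries no member was called, and the first and second of these moved the median to -0.21 and -0.22. Of 37 interferon-response genes that passed 2 were called higher and 1 lower, close to the 4.52% and 4.28% of all rows. Of 35 cell cycle genes none was called higher and 3 lower (Ccnd3, Mcm2 and Cdc25a), each of whose calls ended with any library left out. Among 13 genes of microRNA processing Dgcr8, a partner of Drosha, was called higher, at 24.7, 22.7 and 24.8 RPKM in miR-24 Tg and 17.3, 15.6 and 16.5 RPKM in WT (log2 0.52, limma adjusted p = 0.0120), and Mov10 and Tarbp2 were called lower. The call of Dgcr8 was lost with the spread of all 18 libraries (0.284) and when WT replicate 2 or the third transgenic library was left out (up to 0.0555).

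The levels in miR-24 Tg were next set beside those of the other genotypes. Differences were tested in 1 limma fit of all 18 libraries, over the same 10461 rows. The 25 rises and 25 falls were chosen by their miR-24 Tg values, which also enter these differences, so the counts are descriptive.

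Against cluster Tg, where Mir24-2 is also high, 1.93% of all rows differed. None of the 25 rises was higher in miR-24 Tg (background 0.918%) and 6 of the 25 falls were lower (background 1.01%): Igsf23, Kcnmb4, Acvrl1, Dlg4, Gm590 and Gpr83. Against miR-27 Tg, where 1364 of all rows differed, 3 rises were higher, Ccr9, Coro2a and Mir24-2 (background 6.52%), and 18 falls were lower (background 6.52%). Against miR-23 Tg, where 7.55% of rows differed, 16 rises were higher (background 4.60%) and 18 falls were lower (background 2.95%). Against DKO, where 4.86% of rows differed, 19 rises were higher (background 3.24%) and 21 falls were lower (background 1.62%).

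Replicate 3 of miR-27 Tg and replicate 3 of DKO stand apart from their groups, and the fit was repeated with both removed. The 25 rises were then higher in 0 against cluster Tg (background 7.92%), 4 against miR-27 Tg (13.4%), 24 against miR-23 Tg (16.5%) and 23 against DKO (8.81%). The 25 falls were lower in 9 (7.86%), 19 (14.5%), 21 (16.3%) and 23 (7.32%), in the same order.

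Igsf23 shows a fall that was deepest in miR-24 Tg. Beside its 4.62 to 6.00 RPKM there, it was at 10.1, 14.7 and 16.9 RPKM in cluster Tg, 12.1, 16.3 and 14.7 RPKM under miR-27, 24.2, 32.1 and 29.8 in miR-23 Tg and 21.4, 22.1 and 29.7 in DKO. The difference from cluster Tg was -1.26 ± 0.21 on the log2 scale (limma adjusted p = 0.00695). Kcnmb4 was at 10.7, 15.3 and 15.6 RPKM in cluster Tg, a range that overlaps WT, and the difference from it was -1.30 ± 0.19 (limma adjusted p = 0.00388). In both genes every miR-24 Tg library lay below every library of the other 5 genotypes.

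Psap, Ttyh3 and Rgs11 were low in cluster Tg as well. Psap was at 94.6, 133 and 143 RPKM in cluster Tg and between 219 and 341 RPKM in the other 3 genotypes; the difference of miR-24 Tg from cluster Tg was -0.28 ± 0.17 (limma adjusted p = 0.611) and from miR-27 Tg -1.43 ± 0.17 (limma adjusted p = 0.000113). Ttyh3 was at 29.3, 48.1 and 42.2 RPKM in cluster Tg and at 139, 152 and 79.2 RPKM in miR-27 Tg, with differences of -0.61 ± 0.24 (limma adjusted p = 0.283) and -2.19 ± 0.24 (limma adjusted p = 7.85e-05). Rgs11 was at 2.02, 3.67 and 3.87 RPKM in cluster Tg and also low in miR-27 Tg, between 6.18 and 6.76 RPKM. A missed threshold does not show that miR-24 Tg and cluster Tg were alike.

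For Ckb and Cd81 the widest gap was to miR-27 Tg. Ckb was at 37.3, 42.7 and 130 RPKM in miR-27 Tg, a difference of -3.30 ± 0.34 for miR-24 Tg (limma adjusted p = 4.67e-05). Cd81 was at 13.7, 29.5 and 44.99 RPKM there, with a difference of -2.23 ± 0.33 (limma adjusted p = 0.000613). Replicate 3 was the highest of the miR-27 Tg libraries in both.

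Klrd1 was higher in miR-24 Tg than in each of the other 4 genotypes. It ranged from 7.07 to 10.2 RPKM in cluster Tg, 6.17 to 11.02 in miR-27 Tg, 7.19 to 9.92 in miR-23 Tg and 10.1 to 18.9 in DKO, all below the 35.2 RPKM of the lowest miR-24 Tg library. The differences were 2.02, 2.08, 2.01 and 1.39 on the log2 scale (limma adjusted p = 0.000632, 8.70e-05, 0.000287 and 0.00293). Over the 21 called effector and memory genes, miR-24 Tg was higher than cluster Tg in 4, Klrd1, Klrk1, Prf1 and Fasl (background 0.918%). It was higher than miR-27 Tg in the same 4 (background 6.52%), than miR-23 Tg in 16 (4.60%) and than DKO in 18 (3.24%). These 21 were chosen by their rise in the same miR-24 Tg libraries, so the counts are descriptive. Klrd1, Klrk1 and Prf1 were called higher against all 4 in this fit; in the fit of 16 libraries Klrd1 and Prf1 were, and Klrk1 was not called against miR-27 Tg. Gzmk, a granzyme, was lower than in cluster Tg, where it was at 18.9, 16.3 and 8.12 RPKM against 3.40, 2.76 and 5.36 RPKM in miR-24 Tg.

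Nrp1, Ccl5 and Tbx21 in miR-24 Tg were not called different from cluster Tg or from miR-27 Tg in the fit of 18 libraries, and Nrp1 was called lower than in cluster Tg in the fit of 16. Nrp1 was at 42.0, 24.8 and 24.7 RPKM in cluster Tg and at 27.2, 12.3 and 12.4 RPKM in miR-27 Tg, and lower in miR-23 Tg (1.98 to 2.19 RPKM) and DKO (0.737 to 1.64 RPKM). Ccl5 was at 42.4, 27.4 and 9.82 RPKM in cluster Tg and at 34.3, 13.3 and 64.1 RPKM in miR-27 Tg, overlapping miR-24 Tg in both. Ccr9 differed from this pattern: it was at 22.0, 8.87 and 12.02 RPKM in cluster Tg and at 1.99, 1.20 and 0.540 RPKM in miR-27 Tg, and miR-24 Tg was higher than the latter by 3.51 ± 0.32 on the log2 scale (limma adjusted p = 2.14e-05). Tbx21 was at 4.77, 3.48 and 2.06 RPKM in cluster Tg and at 3.88, 1.49 and 2.07 RPKM in miR-27 Tg, and between 0.153 and 0.608 RPKM in the miR-23 Tg and DKO libraries.

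**Figure D5:**
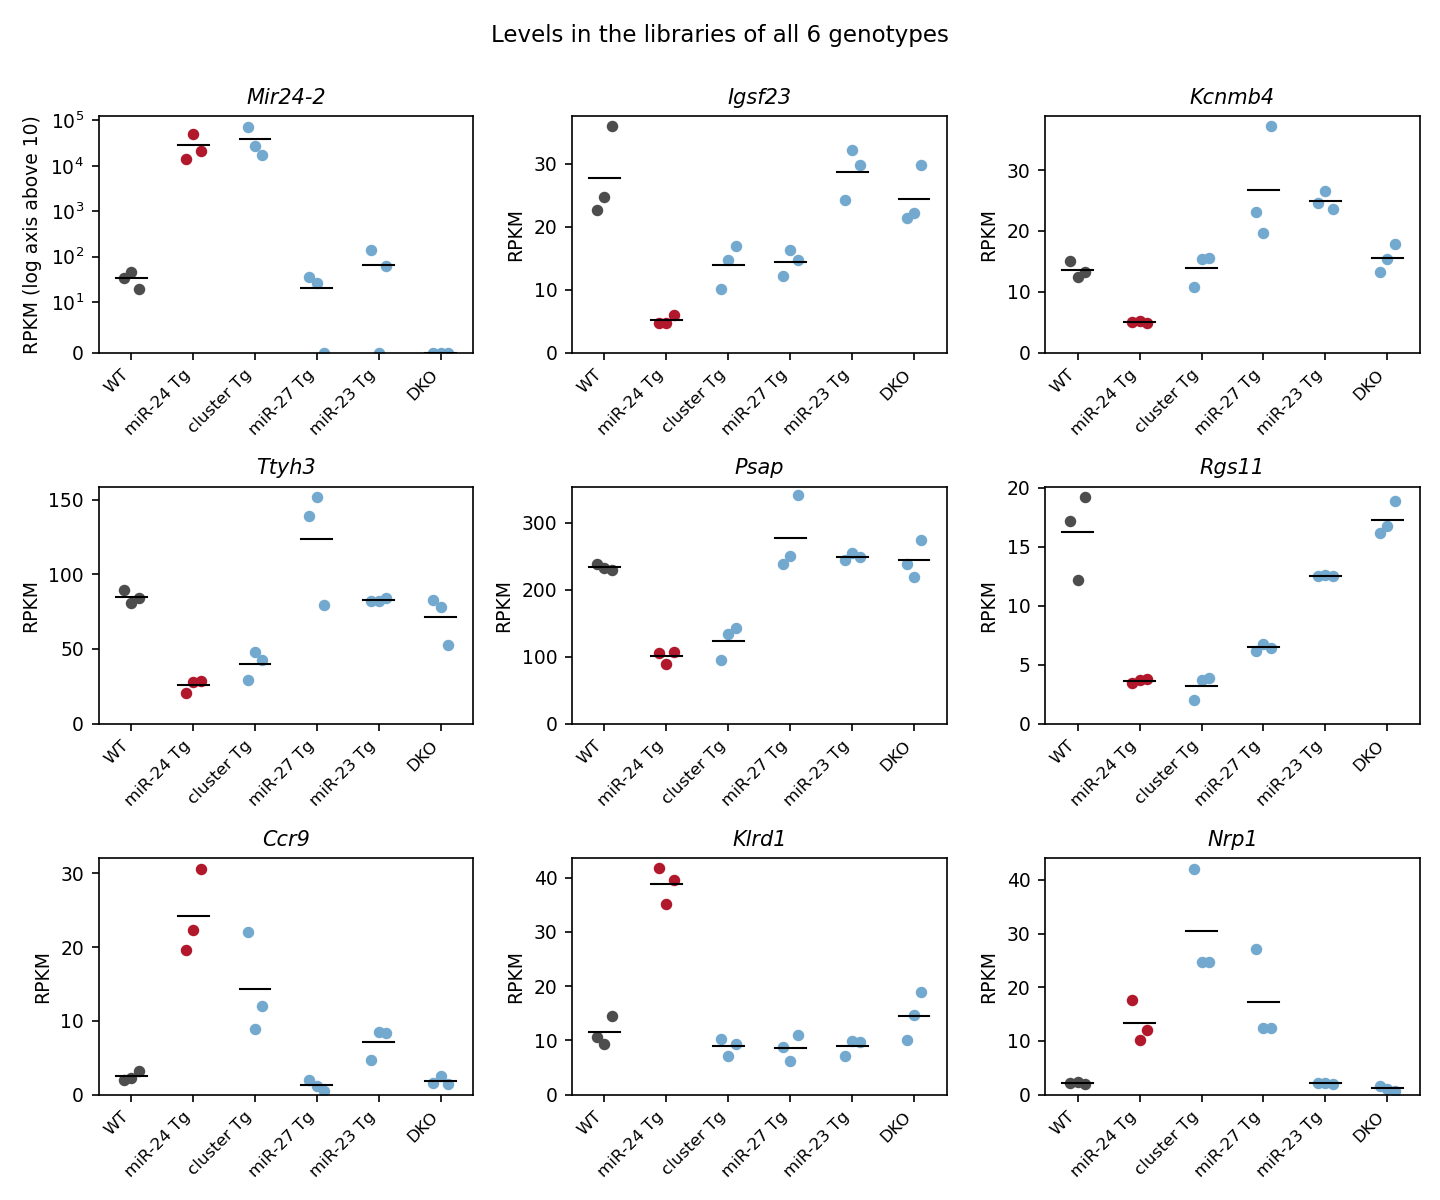
RPKM in the 3 libraries of each of the 6 genotypes for Mir24-2 (log axis above 10), 5 genes that fell and 3 that rose in miR-24 Tg against WT; points are libraries and black lines their means. Kcnmb4 and Klrd1 in miR-24 Tg (red) lie apart from all other libraries, at 4.85 to 5.12 RPKM and 35.2 to 41.9 RPKM, whereas Nrp1 is as high or higher in cluster Tg and miR-27 Tg.

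Rows with an 8mer or 7mer-m8 were also called lower in miR-24 Tg more often than rows without a match against the genotypes that do not over-express miR-24. The shares were 9.13% and 6.07% against miR-27 Tg, 5.59% and 2.11% against miR-23 Tg and 3.06% and 1.14% against DKO. Against cluster Tg they were 1.34% and 0.997%. The medians did not follow in every case: with and without a match they were -0.01 and -0.02 on the log2 scale against miR-27 Tg, -0.07 and 0.01 against miR-23 Tg, -0.01 and -0.01 against DKO and -0.02 and 0.01 against cluster Tg. These comparisons share the 3 miR-24 Tg libraries with each other and with the comparison with WT, so they are not independent of it.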

How the data were processed

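Total RNA, small RNAs included, of sorted naive CD4 T cells was sequenced, and the authors deposited 1 table of RPKM values with a column for each of the 18 libraries. STAR 2.2.0c, HOMER and the build mm9 are named, with no role, per the submitters' processing notes; the notes used here name neither gene models nor a counting rule nor strand, so rows of paralogs, H2 genes, histones and overlapping genes are uncertain. RPKM values are not counts, so no count test was run, and the authors' scaling by total reads lets very abundant rows shift all others. Of 23953 rows, 27 carry symbols that a spreadsheet turned into dates and 2 repeat a symbol.

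Values were used as log2(RPKM + 1), a scale that understates changes of low genes. Rows with 1 RPKM or more in 3 or more of the 6 libraries were fitted with limma 3.58.1 in R 4.3.3 (variance trend, no covariates), with Benjamini-Hochberg adjustment over all rows and a threshold of 0.05; the fit was tested on simulated data. An exact permutation test of 3 against 3 libraries cannot go below 0.1 and was not used. In miR-23 Tg, 2 of the 3 columns share a replicate number and all 3 are treated as replicates of the group.

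Genes with values were drawn from the 25 largest rises and 25 largest falls among called rows. These rows had no overlap and a mean of at least 5 RPKM in the higher group. Genes were also drawn from the lists, up to 8 called members of each and up to 4 of its most abundant members not called. Some lists and some genes that meet these rules are not described, and not every exception is stated. The members and lists were chosen with earlier results of these data known. Seed matches were counted in 1 GENCODE M21 3′ UTR per gene (GRCm38; 9431 rows matched by symbol and 365 through a synonym), and no coordinates were moved between builds. Values of a few genes are not reported here.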

Additional observations from a re-analysis of the deposited data

How the results depend on the processing

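The number of called rows, 921 with 473 higher and 448 lower, moved most with the libraries used. Leaving out 1 library gave 222 to 906 called, 121 to 483 higher and 94 to 423 lower, with 35 to 118 called members of the gene lists against 110. The fit of all 18 libraries gave 385 called, 250 higher, 135 lower and 65 list members; the fit of 16 gave 1900, 1005, 895 and 169. Without a filter on low values the numbers were 603, 312, 291 and 59, and a filter at 5 RPKM gave 311 higher. Rescaling without the microRNA rows gave 472 called, 128 lower and 66 list members. Replicates 2 and 3 of both groups alone, an alternative chosen after seeing the data, gave 28 called, 19 higher, 9 lower and 7 list members.

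With the replicate number as a block 176 rows were called, 102 higher and 74 lower, with 34 list members; 173 of the 176 were among the 921. Whether the numbers pair the samples is not known. Deviations of same-numbered libraries correlated at -0.01, 0.11 and 0.21, and miR-24 Tg replicate 2 correlated best with WT replicate 1 (0.15). Deviations from the means of 3 libraries cannot decide this. Replicate 1 of both groups carried Ddx3y and replicates 2 and 3 of both carried Xist, so the number goes with sex in both groups.

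The median shift of rows with an 8mer or 7mer-m8, -0.07, was -0.0517 with a pseudocount of 5, -0.0506 with replicates 2 and 3 alone and -0.0782 to -0.0541 with a library left out. Of 137 called named genes none changed direction under any alternative tried, and 131 were called with 16 libraries, 109 after quantile normalisation, 90 without microRNA rows, 76 with 18 libraries, 75 without a filter, 56 with the replicate block, 55 to 113 with a library left out and 19 with replicates 2 and 3 alone. Mir23a, not called, ran from -2.20 (without WT replicate 3) to 2.75, with -1.54 and -0.55 without miR-24 Tg replicates 2 and 3. Why these values moved was not tested. Absolute depth is unknown, which limits low rows most.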

Other observations

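Some of the 8mers lie in a short repeated stretch, CTGAGCCATCTCTCC, that starts with the 8mer. Among tested rows 58 held an 8mer within that stretch and nowhere else, and 3 of them were called lower (5.17%): Igfbp4, Frmd8 and Dffa. Of 770 rows whose 8mers all lie outside it, 7.92% were called lower. The share is a description of these rows and was not tested.

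Gt(ROSA)26Sor, the noncoding transcript of the Rosa26 locus, was among the 25 largest falls. It was at 6.19, 9.18 and 5.11 RPKM in miR-24 Tg and at 14.1, 20.5 and 16.8 RPKM in WT. It was also at 4.62, 7.02 and 7.07 RPKM in cluster Tg and at 5.28 to 5.34 RPKM in miR-23 Tg, but at 15.3, 22.0 and 30.9 RPKM in DKO. In miR-27 Tg replicates 1 and 2 were at 5.36 and 4.96 RPKM and replicate 3 at 20.7 RPKM.

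Immediate early genes, which a brief stimulus or cell handling turns on, varied within both groups. Their sum was 2802, 10320 and 3968 RPKM in miR-24 Tg and 7456, 6837 and 4590 RPKM in WT. The sum of heat stress genes was 1691, 4711 and 1606 RPKM in miR-24 Tg and 3127, 3239 and 2730 RPKM in WT. In both lists miR-24 Tg replicate 2 was the highest of the 6 libraries and replicates 1 and 3 were the lowest.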
